A study of Mus musculus with 6 samples.

Results

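The miR-30 family is described here by 6 mouse hairpin genes, Mir30a, Mir30b, Mir30c-1, Mir30c-2, Mir30d and Mir30e, out of 1174 microRNA hairpins searched. These members were taken by name, and every sequenced tag of 18 to 26 bases that matched a hairpin exactly on the sense strand was summed for each arm of the hairpin and each library. The 6 hairpins gave 11 arms, since the 5p arms of Mir30c-1 and Mir30c-2 are identical and are given together as miR-30c-5p. Of these, 10 arms reached 10 tags per 1000000 microRNA tags (CPM) in at least 1 library, and miR-30d-3p, with 7 tags in all, did not.

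The libraries came from total RNA of J1 mouse embryonic stem cells, a gelatin-adapted line, and all 6 cultures, the retinoic acid culture included, were kept in leukemia inhibitory factor at 1000 U/ml. Cells received retinoic acid at 1 µM, BIO at 1 µM or CHIR99021 at 3 µM, against DMSO (1 µL) as vehicle, or vitamin C at 50 µg/ml, against ddH2O (1 µL), each for 24 h. Retinoic acid is an inducer of differentiation, BIO and CHIR99021 raise Wnt signalling by inhibiting the kinase GSK3, and vitamin C serves iron-dependent dioxygenases that act on chromatin. Each group had 1 library, so that no test between treatments was possible, and the 95% intervals given with ratios and shares (exact conditional binomial for ratios, Clopper-Pearson for shares) cover counting error only.

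A microRNA gene is transcribed as a long precursor, cut by Drosha and Dicer into a duplex of a 5p and a 3p strand, and usually 1 of the strands is kept by an Argonaute protein. The kept strand finds messenger RNAs mainly through its seed, bases 2 to 8 from its 5′ end, so a shift of the 5′ end by a base changes the set of possible targets, while changes at the 3′ end leave the seed as it was. In the miR-30 family the 5p strands share a seed and are usually described as the guide strands, whereas the 3p strands fall into a few seed groups. The family is known from kidney, heart and other differentiated tissues, and in mouse embryonic stem cells it accompanies the far more abundant cluster of miR-290 to miR-295.

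The mature forms below, from RefSeq (GRCm38.p6), are shown because the seeds, in capitals, separate the arms into groups; 4 of the 6 hairpins matched an entry in that table. The 5p forms of miR-30a, miR-30c and miR-30e have the seed GUAAACA. MiR-30a-5p and miR-30e-5p differ by the single change C13U and miR-30a-3p and miR-30e-3p by G18A, counted from the 5′ end with the miR-30a base first. The 3p strands of miR-30a and miR-30e share the seed UUUCAGU, and those of the 2 miR-30c hairpins share UGGGAGA.
miR-30a-5p (chr1:23272274-23272295, plus strand): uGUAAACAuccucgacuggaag
miR-30e-5p (chr4:120772660-120772681, minus strand): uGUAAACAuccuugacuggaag
miR-30c-5p (chr4:120769584-120769606, minus strand, Mir30c-1 copy): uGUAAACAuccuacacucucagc
miR-30a-3p (chr1:23272315-23272336, plus strand): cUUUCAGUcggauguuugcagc
miR-30e-3p (chr4:120772618-120772639, minus strand): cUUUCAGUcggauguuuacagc
miR-30c-1-3p (chr4:120769546-120769567, minus strand): cUGGGAGAggguuguuuacucc
miR-30c-2-3p (chr1:23291754-23291775, plus strand): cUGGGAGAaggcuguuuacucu

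The 6 hairpins lie as 3 pairs on the GRCm38 build, each pair holding members on 1 strand. Mir30a (chr1:23272269-23272339) overlapped no other annotated gene and lay 19361 bases from Mir30c-2 (chr1:23291701-23291784), which overlaps an exon of the lincRNA Gm27028. Mir30c-1 (chr4:120769534-120769622) and Mir30e (chr4:120772606-120772697) lay 2983 bases apart in introns of Nfyc, the gene of a subunit of the transcription factor NF-Y. The annotation also places a gene named Mir30f on the opposite strand of Mir30e; it is not among the members, and 0 tags matched it. Mir30b (chr15:68337415-68337510) overlaps an exon of Gm26621 and Mir30d (chr15:68341208-68341289) exons of Gm37296 and Gm20732, with 3697 bases between them.

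The libraries held 18870345 to 23758363 tags. MicroRNA tags numbered 729176 after retinoic acid, 2099669 after BIO and 1428512 after CHIR99021, against 2155065 in DMSO, and 1890064 after vitamin C, against 1748588 in ddH2O. This was 3.76% of the retinoic acid library, against 11.4% of the DMSO library, the widest gap in that share. A count of 0 allowed up to 4.11 CPM after retinoic acid and 1.39 to 2.1 CPM in the other libraries, taking 3 counts as the floor. As a check of the cell label, the embryonic stem cell cluster of miR-290 to miR-295 made up 168349 CPM after retinoic acid and 272761 to 342476 CPM in the other 5 libraries.

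Within the family the 5p strands of miR-30d and miR-30a dominated every library. MiR-30d-5p stood at 3511 CPM after retinoic acid, 2506 after BIO and 2514 after CHIR99021, against 2891 in DMSO, and at 2400 after vitamin C, against 2863 in ddH2O. MiR-30a-5p stood at 2899 CPM after retinoic acid, 1463 after BIO and 1999 after CHIR99021, against 1961 in DMSO, and at 1970 after vitamin C, against 2261 in ddH2O. In each library the order of the 5p strands was miR-30d, miR-30a, miR-30e, miR-30c and miR-30b, and the nearest neighbours, miR-30d-5p and miR-30a-5p, differed by 1.21-fold (interval 1.14 to 1.28) after retinoic acid and by up to 1.71-fold (1.64 to 1.79) after BIO.

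The less abundant 5p strands covered a wide range. MiR-30e-5p stood at 763 CPM after retinoic acid, 504 after BIO and 613 after CHIR99021, against 619 in DMSO, and at 677 after vitamin C, against 746 in ddH2O. MiR-30c-5p stood at 311 CPM after retinoic acid, 259 after BIO and 222 after CHIR99021, against 271 in DMSO, and at 348 after vitamin C, against 222 in ddH2O. MiR-30b-5p, the scarcest, stood at 96.0 CPM after retinoic acid, 29.1 after BIO and 34.0 after CHIR99021, against 34.3 in DMSO, and at 56.6 after vitamin C, against 41.5 in ddH2O. Its highest library was 3.30 times its lowest, the widest spread among the 5p strands, on 433 tags in all.

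**Figure D1:**
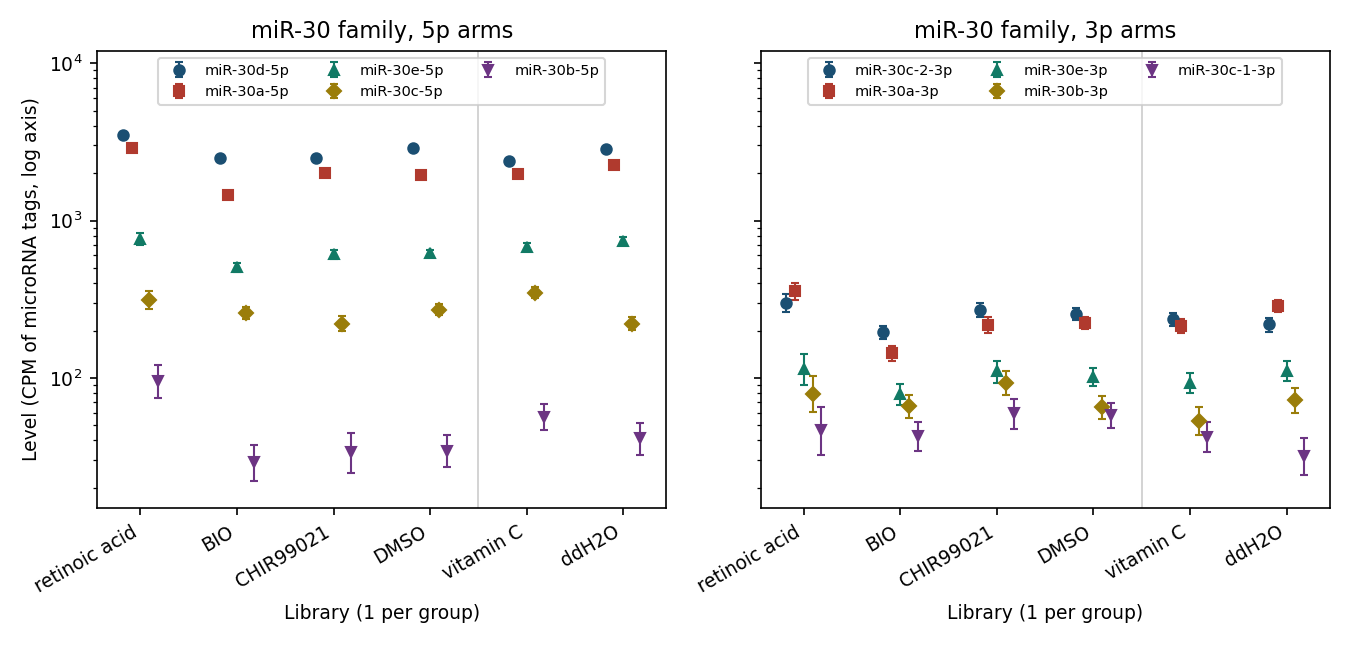
Level of each miR-30 arm in each library, in CPM of microRNA tags on a log axis, with 5p arms on the left and 3p arms on the right. Points are single libraries, bars are 95% Clopper-Pearson intervals for counting error, and the grey line separates the DMSO from the ddH2O set. MiR-30d-5p and miR-30a-5p lie highest in every library, and miR-30b-5p ranges from 29.1 CPM in BIO to 96.0 CPM in retinoic acid.

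The 3p strands were scarcer, summing to 526 to 896 CPM in the 6 libraries, where the 5p strands summed to 4760 to 7580 CPM. MiR-30c-2-3p stood at 300.3 CPM after retinoic acid, 194 after BIO and 272 after CHIR99021, against 255 in DMSO, and at 236 after vitamin C, against 218 in ddH2O. MiR-30a-3p stood at 355 CPM after retinoic acid, 143 after BIO and 218 after CHIR99021, against 223 in DMSO, and at 213 after vitamin C, against 286 in ddH2O. In exactly matching tags these strands changed places between libraries. MiR-30a-3p was the higher one after retinoic acid, where their intervals overlapped, and in ddH2O, where they did not. With up to 3 added 3′ bases that the hairpin does not encode counted as well, miR-30a-3p was the higher in every library. Its tags then numbered 432 against 224 for miR-30c-2-3p after retinoic acid, 525 against 425 after BIO and 468 against 403 after CHIR99021. They numbered 764 against 561 in DMSO, 660 against 458 after vitamin C and 866 against 399 in ddH2O. MiR-30e-3p lay between 79.1 and 114 CPM, miR-30b-3p between 53.4 and 93.1 CPM and miR-30c-1-3p between 32.0 and 59.5 CPM. MiR-30d-3p had 0 tags in 3 libraries and at most 2.80 CPM, after CHIR99021.

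In all libraries the members ranked in the same order, but with differing shares, among the family's 5p tags. MiR-30d-5p made up 44.02 to 52.6% of them, miR-30a-5p 30.7 to 38.2%, miR-30e-5p 10.1 to 12.4%, miR-30c-5p 3.61 to 6.39% and miR-30b-5p 0.594 to 1.27%. The highest share of miR-30d-5p was in BIO, at 52.6% (51.7 to 53.6), against 50.0% in DMSO (49.2 to 50.9). The highest share of miR-30c-5p was after vitamin C, at 6.39% (5.92 to 6.87), against 3.61% in ddH2O (3.27 to 3.99).

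Members from the same locus pair were unequal in tag counts. In the pair on chromosome 15, miR-30d-5p exceeded miR-30b-5p by 36.6-fold after retinoic acid (28.8 to 47.1), 86.2-fold after BIO (67.0 to 113) and 74.0-fold after CHIR99021 (55.3 to 99.3), against 84.2-fold in DMSO (67.0 to 107). The same ratio was 42.4 after vitamin C (35.00 to 51.8), against 69.0 in ddH2O (55.1 to 89.0). This ratio compares strands within a library and so does not depend on how libraries are scaled. It is a ratio of tags, as are the shares of strands below. How evenly different sequences were captured in the libraries was not measured. The 2 miR-30c hairpins, whose 5p strands cannot be told apart, were unequal in their 3p strands, with miR-30c-2-3p at 4.39 to 6.82 times miR-30c-1-3p.

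The share of the 5p strand among the tags of a hairpin split the family into 3 classes. Mir30d gave almost only the 5p strand, at 99.9 to 100% of tags. Mir30a gave 88.8 to 91.1% and Mir30e 84.8 to 87.9% from the 5p strand, with little difference between libraries. The 2 miR-30c hairpins together gave 47.3% after retinoic acid (42.7 to 51.9), 52.2% after BIO (49.1 to 55.2) and 40.1% after CHIR99021 (36.6 to 43.5), against 46.5% in DMSO (43.7 to 49.3), and 55.6% after vitamin C (52.7 to 58.4), against 46.9% in ddH2O (43.5 to 50.4). All these shares count exactly matching tags only. With up to 3 added 3′ bases counted, over all libraries, miR-30a-3p rose from 2253 to 3715 tags and miR-30a-5p from 19942 to 21164. MiR-30e-3p rose from 995 to 1885 tags and miR-30e-5p from 6408 to 7394, so both 5p shares were lower. MiR-30c-5p rose from 2717 to 3608.5 tags, miR-30c-2-3p from 2392 to 2470 and miR-30c-1-3p from 470 to 489, so their 5p share was higher. Over all libraries, miR-30c-5p thus had fewer tags than its 3p strands together in exact matches, and more with added bases.

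In Mir30b the 5p strand was the minor strand in 4 libraries. It made up 54.7% of tags after retinoic acid (45.7 to 63.5), 30.5% after BIO (24.2 to 37.4) and 26.7% after CHIR99021 (20.1 to 33.4), against 34.6% in DMSO (28.2 to 41.4). It made up 51.4% after vitamin C (44.4 to 58.4), against 36.5% in ddH2O (29.7 to 43.5). The retinoic acid and vitamin C libraries were thus the high ones for this share, and their intervals lay above those of their vehicles. Between cultures the spread of this share is not known, since no group was repeated.

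**Figure D2:**
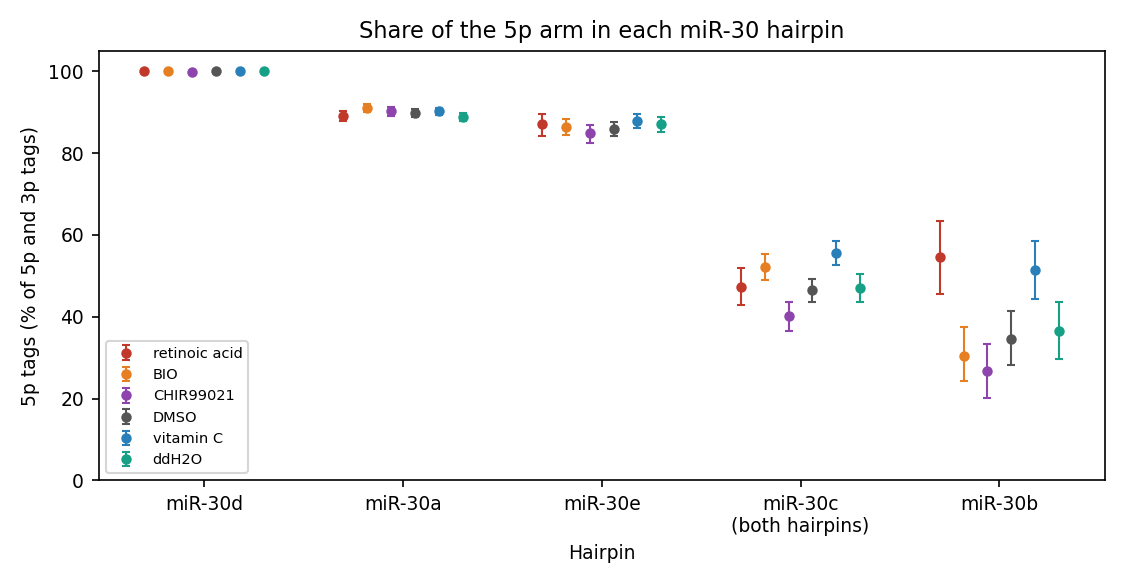
Share of 5p tags among the exactly matching 5p and 3p tags of each hairpin, in percent, by library. Points are single libraries and bars 95% Clopper-Pearson intervals for counting error. Mir30d lies at 99.9 to 100%, Mir30a and Mir30e between 84.8 and 91.1%, and Mir30b ranges from 26.7% in CHIR99021 to 54.7% in retinoic acid.

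Retinoic acid against DMSO addresses an inducer of differentiation, given here with leukemia inhibitory factor still in the medium. An arm was called different when it differed at least 2-fold between the libraries, its interval excluded 1 and it reached 10 CPM in the higher library. Of the 10 measured arms, 1 was called higher and 0 lower, where 33.1% of all 534 measured arms were called higher and 7.68% lower. The called arm was miR-30b-5p, on 70 tags after retinoic acid against 74 in DMSO, at 2.80 times its DMSO level (interval 1.99 to 3.93). It was 1.96 times DMSO (1.39 to 2.75), and not called, under scaling by trimmed mean of M values (TMM), and 0.921 times DMSO (0.655 to 1.30) when counts were divided by all tags of the library.

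Uncalled 5p strands after retinoic acid stood at 1.48 times DMSO for miR-30a-5p (1.40 to 1.56), 1.23 for miR-30e-5p (1.11 to 1.36), 1.21 for miR-30d-5p (1.16 to 1.27) and 1.15 for miR-30c-5p (0.979 to 1.34). Among the 3p strands miR-30a-3p stood at 1.59 times DMSO (1.37 to 1.86) and miR-30c-1-3p, the only measured arm below its DMSO level, at 0.804 times (0.533 to 1.18). The median log2 ratio of the 10 arms was 0.29, beside 0.46 over all 534 measured arms. The summed 5p level was 7580 CPM, against 5776 CPM in DMSO, a ratio of 1.31 (1.27 to 1.35), and the summed 3p level 896 CPM, against 702 CPM in DMSO, a ratio of 1.28 (1.16 to 1.40).

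The direction of these sums depended on the scaling, whose shift was largest for the retinoic acid library. TMM moved every log2 ratio of this comparison by -0.51, giving -0.12 for the 5p sum and -0.16 for the 3p sum, and median-of-ratios scaling moved it by -0.36, giving 0.03 and -0.01. Divided by all tags, the 5p sum was 0.432 of DMSO (0.419 to 0.446), and 8 of the 10 arms were called lower and 0 higher, where 55.2% of all 534 measured arms were called lower. Dividing by all tags moved every log2 ratio of this comparison by -1.60. This shift is set by the shares of microRNA tags, 3.76% after retinoic acid against 11.4% in DMSO. What lay behind the lower share was not tested. In bulk RNA, fewer cells that hold a microRNA and less of it per cell cannot be told apart.

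BIO against DMSO addresses inhibition of GSK3, and no arm of the family was called among the 10 measured, where 7.2% of 472 arms were called in either direction. The family's levels lay slightly below DMSO in 9 of the 10 arms, with a median log2 ratio of -0.33 beside -0.09 over all measured arms. MiR-30a-3p was lowest relative to DMSO, at 0.641 times (0.553 to 0.743), followed by miR-30c-1-3p at 0.739 times (0.557 to 0.977) and miR-30a-5p at 0.746 times (0.712 to 0.782). The 5p sum was 0.824 of DMSO (0.803 to 0.846) and the 3p sum 0.750 (0.693 to 0.811), and both sums stayed below DMSO under each scaling tried. Set against ddH2O in place of DMSO, miR-30a-3p was called lower, at 0.4997 times (0.432 to 0.578), where 9.69% of 485 arms were called lower.

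CHIR99021 is the other GSK3 inhibitor, given at a different dose, and it too left no arm of the family past the 2-fold call, where 18.5% of 481 arms were called. MiR-30b-3p stood at 1.43 times DMSO (1.12 to 1.83), miR-30c-5p at 0.816 (0.707 to 0.934) and miR-30d-5p at 0.870 (0.834 to 0.906), and the intervals of the other 7 measured arms included 1. The 5p sum was 0.931 of DMSO (0.905 to 0.958) and the 3p sum 1.07 (0.993 to 1.16), with a median log2 ratio of 0.01 over the 10 arms beside -0.11 over all measured arms. Divided by all tags, the 5p sum was at a log2 ratio of -1.03 and called lower, with 2 arms called lower, miR-30c-5p and miR-30d-5p, where 52.4% of all 481 measured arms were called lower.

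Vitamin C against ddH2O asks about a compound that supports self-renewal, and no arm of the family was called, where 7.22% of 485 arms were called. MiR-30c-5p was the highest relative to ddH2O, at 1.57 times (1.38 to 1.78), and miR-30b-5p stood at 1.37 times (0.998 to 1.85). MiR-30a-3p stood at 0.746 times ddH2O (0.652 to 0.852), miR-30b-3p at 0.742 times (0.565 to 0.971) and miR-30d-5p at 0.838 times (0.805 to 0.873). The 5p sum was 0.889 of ddH2O (0.865 to 0.913) and the 3p sum 0.886 (0.818 to 0.960), with a median log2 ratio of -0.17 beside -0.01 over all measured arms. Scaling moved these ratios by at most 0.10 on the log2 scale. Counting the leading tag of each arm only, miR-30c-1-3p was called higher, at 2.81 times ddH2O (1.34 to 6.44), where 5.81% of 465 arms were.

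The 2 vehicle libraries show how far cultures without an active compound lay apart. In ddH2O against DMSO no arm of the family was called, where 7.45% of 483 arms were. MiR-30c-1-3p was lowest relative to DMSO, at 0.552 times (0.395 to 0.763) on 56 tags in ddH2O against 125 in DMSO, and miR-30a-3p highest, at 1.28 times (1.13 to 1.46). MiR-30c-1-3p was called lower with counts divided by all tags, at 0.415 times (0.297 to 0.573), where 8.49% of 483 arms were, and with the most abundant tag alone, at 0.235 times (0.106 to 0.469), where 3.1% of 451 arms were. MiR-30c-5p stood at 0.816 times DMSO (0.718 to 0.933), the same ratio as CHIR99021 gave. The sums differed little, at 1.06 for 5p (1.03 to 1.09) and 1.03 for 3p (0.951 to 1.11), and lay below 1 under all 3 other scalings. Retinoic acid, BIO, CHIR99021 and ddH2O are each set against the same DMSO library, so these ratios are not independent of each other.

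**Figure D3:**
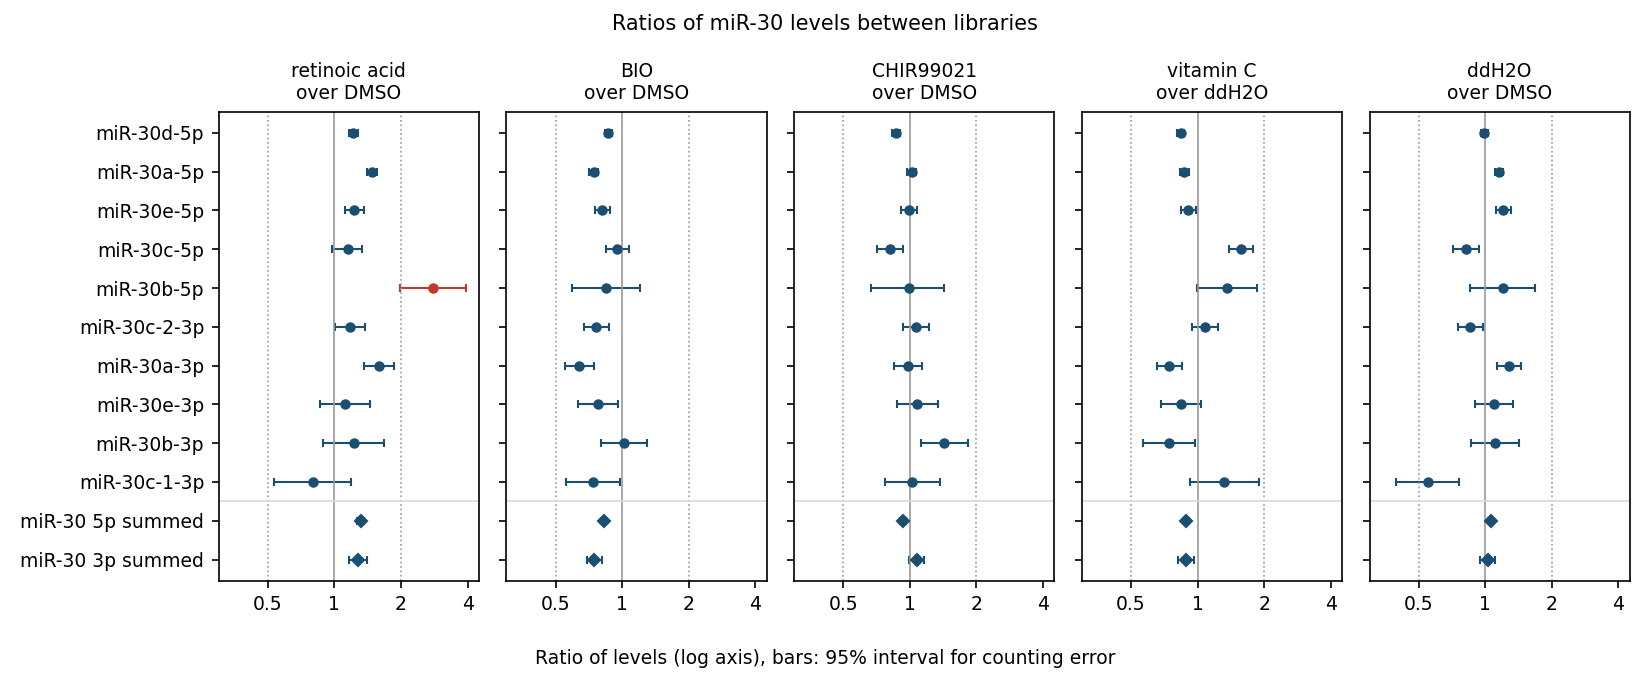
Ratio of the level in the first library to that in the second for each measured miR-30 arm (circles) and for the summed 5p and 3p arms (diamonds), on a log axis, in 5 comparisons. Bars are 95% exact conditional binomial intervals for counting error, dotted lines mark 2-fold, and red marks a call. The red point is miR-30b-5p in retinoic acid over DMSO, at 2.80 with counts divided by microRNA tags, which is not called with TMM scaling and lies at 0.921 with counts divided by all tags.

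Set beside other families in retinoic acid against DMSO, the miR-30 family had 1 of 10 arms called higher, where 33.1% of all measured arms were called higher and 7.68% lower. Its summed ratio was 1.31, and under TMM scaling 0 arms were called and the 5p sum was 0.919 of DMSO. The let-7 family with miR-98, known from differentiated cells, had 0 of 9 arms called and a summed ratio of 1.03. The miR-26 family had 1 of 2 arms called higher and a summed ratio of 1.81, and the miR-29 family 1 of 3 arms called higher and a summed ratio of 1.23. The cluster of miR-290 to miR-295 had 4 of 14 arms called lower and a summed ratio of 0.577. Calls and ratios of these other families are given without TMM scaling, which moves each log2 ratio of this comparison by -0.51. With 1 library per group, differences between families in this response were not tested.

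Among 243 other arms at 100 CPM or more on average, the 5 whose log2 levels over the 6 libraries lay nearest to the summed miR-30 5p level, after centring each on its own mean, were miR-676-3p, miR-151-5p, miR-195a-5p, miR-20b-5p and miR-541-5p. Their root mean square differences were 0.077, 0.117, 0.117, 0.126 and 0.128, beside a median of 0.388 over the 243 arms. MiR-676-3p stood at 928 CPM after retinoic acid, 540.1 after BIO and 633 after CHIR99021, against 635 in DMSO, and at 579 after vitamin C, against 648 in ddH2O. This likeness rests on 6 libraries that share a scaling to microRNA tags.

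The 5′ ends of the 5p strands were nearly uniform. In the 5 measured 5p arms, the main start held between 96.6 and 100% of tags in every library, so the seeds printed above are those of nearly all 5p tags of miR-30a, miR-30c and miR-30e. MiR-30a-3p was the least uniform measured arm of the family. Its main start held 52.9 to 60.4% of tags, and 37.7 to 44.4% began 1 base later, which moves the seed by a base. The later start made up 38.6% of miR-30a-3p tags after retinoic acid (32.6 to 44.8), 37.7% after BIO (32.2 to 43.4) and 39.5% after CHIR99021 (34.1 to 45.2), against 38.8% in DMSO (34.4 to 43.3).

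That later start of miR-30a-3p was also at 44.4% after vitamin C (39.5 to 49.4), against 42.4% in ddH2O (38.0 to 46.9), and its intervals overlapped in all 6 libraries. MiR-30e-3p, which differs from miR-30a-3p by G18A, began 1 base later in 9.28 to 16.3% of tags. The 3p strands of the 2 miR-30c hairpins did so in 8.22 to 20.6% of tags, and miR-30b-3p in 1.98 to 5.04%.

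The most abundant 5p tags were longer than the RefSeq mature forms, with the same 5′ end. They are shown because the bases beyond the RefSeq end, in capitals, mark where the strands of these cells ended.
miR-30a-5p, 24 bases: uguaaacauccucgacuggaagCU
miR-30e-5p, 24 bases: uguaaacauccuugacuggaagCU
miR-30c-5p, 24 bases: uguaaacauccuacacucucagcU
These tags match the hairpin throughout, so the added bases are templated. Tags of 24 bases made up 47.1% of miR-30a-5p, 72.4% of miR-30e-5p and 78.9% of miR-30c-5p over all libraries, and 73.1% of miR-30d-5p. The tag of RefSeq length held 10.6% of miR-30a-5p, 3.03% of miR-30e-5p and 15.1% of miR-30c-5p tags. MiR-30b-5p differed from the other 5p strands, with 91.0% of its tags at 22 bases.

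Lengths of miR-30a-5p varied between libraries within a base, and the median arm moved the same way. Its mean length exceeded DMSO by 0.134 bases after retinoic acid, 0.110 after BIO and 0.127 in ddH2O. The medians over all arms with 100 tags or more in both libraries were 0.059, 0.087 and 0.080. Vitamin C against ddH2O gave -0.084, beside a median of -0.047. MiR-30a-5p lay within the 5th to 95th percentile of those arms in each of these comparisons. Set over its 23-base tags, its 24-base tags stood at a ratio of 1.34 in the retinoic acid library (1.22 to 1.47), 1.38 after BIO (1.28 to 1.49) and 1.02 after CHIR99021 (0.942 to 1.11), against 0.949 in DMSO (0.889 to 1.01). It was 1.09 after vitamin C (1.02 to 1.17), against 1.42 in ddH2O (1.32 to 1.52). The 2 vehicle libraries thus lay at the opposite ends of the range. In miR-30e-5p the same ratio stood at 4.05 in the retinoic acid library (3.26 to 5.07), 4.403 after BIO (3.75 to 5.19) and 3.22 after CHIR99021 (2.74 to 3.80), against 2.70 in DMSO (2.38 to 3.07), and 2.72 after vitamin C (2.39 to 3.09), against 3.78 in ddH2O (3.29 to 4.36).

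The widest difference in length within the family was in miR-30c-2-3p, whose RefSeq form has 22 bases. Tags of 22 bases made up 34.2% of it after retinoic acid (28.0 to 40.9), 46.8% after BIO (41.9 to 51.8) and 40.5% after CHIR99021 (35.5 to 45.5), against 20.8% in DMSO (17.4 to 24.4). They made up 33.0% after vitamin C (28.6 to 37.5), against 32.7% in ddH2O (28.0 to 37.7), so DMSO was the low library and ddH2O lay among the treated ones. The mean length of miR-30c-2-3p was 0.413 bases greater in BIO than in DMSO and 0.190 bases greater in ddH2O than in DMSO. Over all arms with 100 tags or more in both libraries, the median of these differences was 0.087 bases for BIO (286 arms, 5th to 95th percentile -0.039 to 0.640) and 0.080 for ddH2O (284 arms, -0.060 to 0.393).

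**Figure D4:**
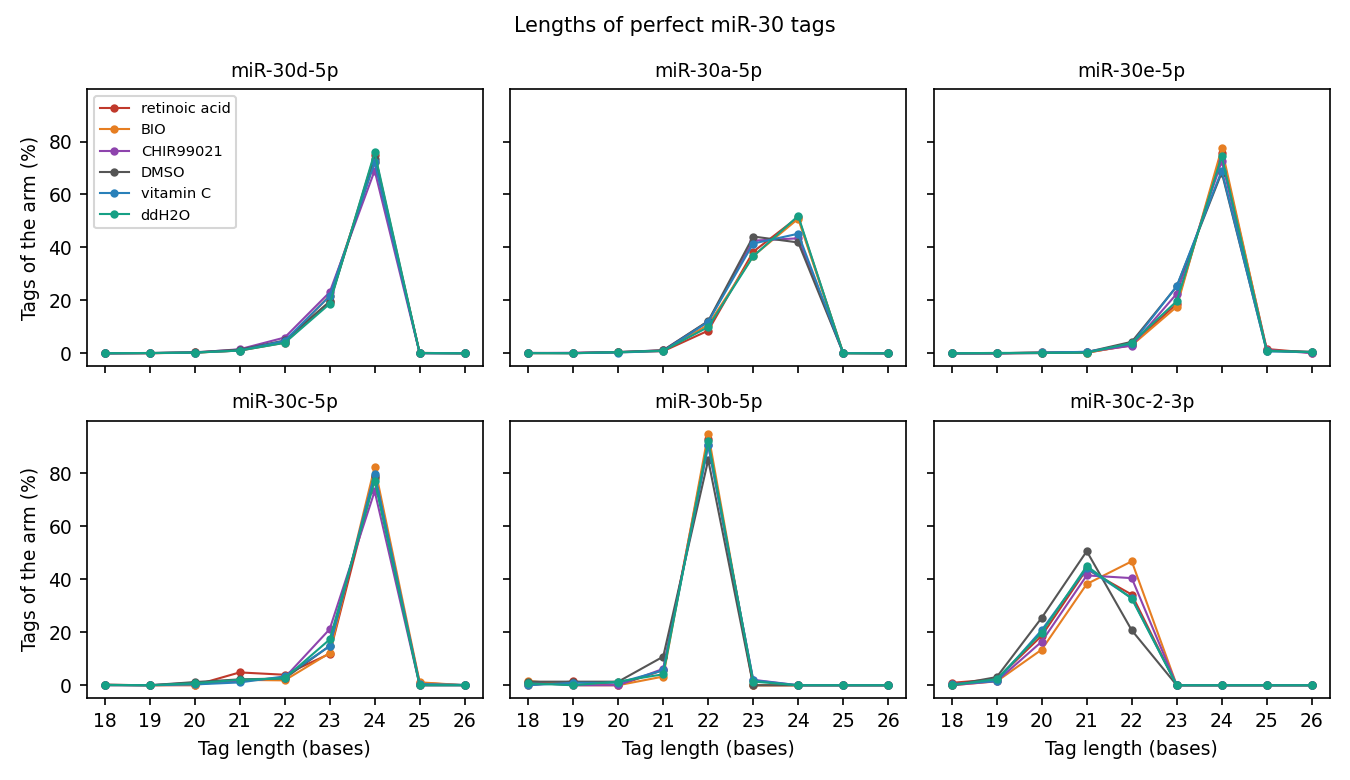
Length distribution of perfect tags of the 5 miR-30 5p arms and of miR-30c-2-3p, as percent of the arm's tags at each length in bases, with 1 line per library. The 24-base tag leads in miR-30c-5p, miR-30d-5p and miR-30e-5p and the 22-base tag in miR-30b-5p. In miR-30c-2-3p the 22-base share ranges from 20.8% in DMSO to 46.8% in BIO.

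Bases added after transcription were counted separately, as tags that match an arm except for bases at the 3′ end that the hairpin does not encode. In cells such additions are mostly U or A and are made by terminal nucleotidyl transferases. A single added U was frequent on the 3p strands of miR-30a and miR-30e. The tags in which the last base of the 22-base form is replaced by U, in capitals, are shown as examples.
miR-30a-3p with U: cuuucagucggauguuugcagU
miR-30e-3p with U: cuuucagucggauguuuacagU
Over all libraries, 25.6% of miR-30a-3p tags and 27.3% of miR-30e-3p tags carried 1 untemplated U, where 3.91% of the tags of all arms did. Among 318 arms with 500 tags or more they ranked 17 and 16 for this share, and the median arm had 2.01%.

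The added U was less frequent elsewhere in the family. It was found on 10.8% of miR-30b-3p tags, rank 50, on 5.36% of miR-30e-5p, on 3.82% of miR-30c-5p, on 2.39% of miR-30d-5p, on 1.26% of miR-30c-2-3p and on 0.879% of miR-30a-5p, rank 205. MiR-30a-3p thus carried the U far more often than the 5p strand of its own hairpin. On miR-30e-3p the added U stood at 35.4% after retinoic acid (28.0 to 43.3), 23.7% after BIO (19.2 to 28.7) and 25.7% after CHIR99021 (20.6 to 31.4), against 28.2% in DMSO (24.0 to 32.8), and at 26.7% after vitamin C (22.0 to 31.9), against 27.4% in ddH2O (22.9 to 32.3). The retinoic acid and DMSO intervals overlapped. Over all arms the added U was also highest after retinoic acid, at 4.60%, against 3.66% in DMSO.

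A single untemplated A was found on 13.1% of miR-30e-3p and 10.6% of miR-30c-5p tags, where 3.67% of the tags of all arms carried one. Retinoic acid was the low library for the added A on both. On miR-30c-5p the added A stood at 5.86% after retinoic acid (3.51 to 9.11), 13.6% after BIO (11.2 to 16.2) and 10.8% after CHIR99021 (7.96 to 14.1), against 10.1% in DMSO (8.03 to 12.4). On miR-30e-3p it stood at 6.83% after retinoic acid (3.46 to 11.9), 15.5% after BIO (11.8 to 19.9) and 14.3% after CHIR99021 (10.4 to 19.1), against 14.9% in DMSO (11.7 to 18.7). The retinoic acid and DMSO intervals overlapped in both arms. Other additions on miR-30c-5p differed in direction. Retinoic acid was the highest library for an added U, at 6.84% (4.28 to 10.3), against 3.27% in DMSO (2.13 to 4.79). It was also the highest for 2 added bases, at 13.0% (9.47 to 17.3), against 8.24% in DMSO (6.39 to 10.4). It was below DMSO for 3 added bases, at 0.326% against 1.31%, and for an added G, at 0% against 0.654%. The intervals overlapped in each case. On miR-30d-5p the added A was highest after retinoic acid, at 4.197% (3.49 to 4.99), against 2.55% in DMSO (2.18 to 2.95). Over the summed 5p strands it stood at 3.73% after retinoic acid (3.27 to 4.23), against 2.84% in DMSO (2.57 to 3.13). DMSO was the lowest library in this share and BIO the highest, at 3.74%. CHIR99021 stood at 3.23%, vitamin C at 3.41% and ddH2O at 3.17%, whose interval (2.87 to 3.51) overlapped that of retinoic acid. Over the summed 3p strands it stood at 3.15% after retinoic acid (2.12 to 4.49), against 4.41% in DMSO (3.56 to 5.39). The intervals of the summed 3p strands overlapped. The share over all arms was 3.48 to 3.91% in the 6 libraries.

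**Figure D5:**
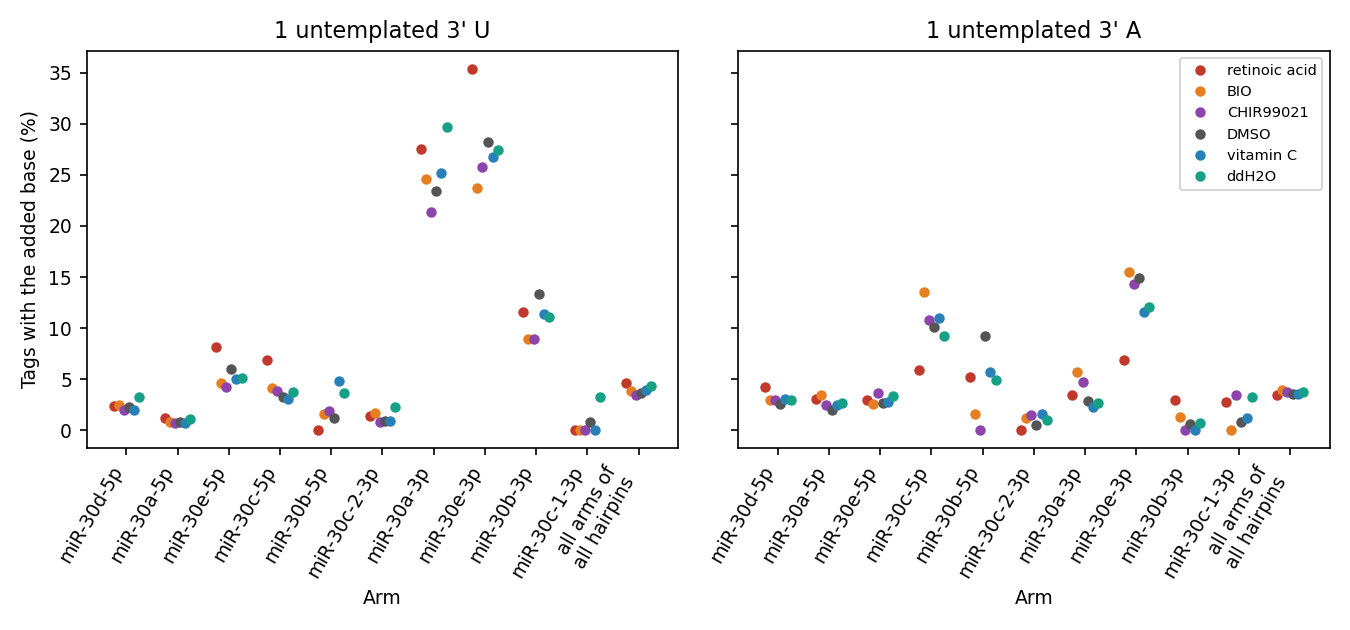
Percent of the tags of each measured miR-30 arm, and of all arms of all hairpins, that end in 1 untemplated U (left) or 1 untemplated A (right). Points are single libraries. The added U reaches 21.4 to 29.7% on miR-30a-3p and 23.7 to 35.4% on miR-30e-3p, and the added A is highest on miR-30e-3p and miR-30c-5p.

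Since miR-30a and miR-30e are so alike, tags that differ from a leading tag by 1 internal base were also counted. The most abundant miR-30e-5p tag numbered 49.3% of the miR-30a-5p tag from which it differs by C13U. Internal changes of that miR-30a-5p tag that do not give another member's tag numbered at most 0.181% of it, for C10U, over all libraries. For the most abundant tag of miR-30e-5p the highest such change was C11U, at 0.194%. Changes that turn 1 member's tag into another's were left out of these values, so they do not bound errors between members. Tags that matched several arms exactly and were split between them made up at most 0.018% of the family's tags in a library.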

How the data were processed

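Each deposited file lists sequence tags with the read counts the authors made, 1 file per sample and without a header. Per the labels' protocols, libraries were made from 1 µg of total RNA with a TruSeq RNA kit; how small RNA was selected and adapters were trimmed is not given in the sources used here. The submitters' processing notes name the build mm9, of which no coordinate is used here.

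Tags of 18 to 26 bases were matched, with no mismatch and on the sense strand, to 1174 hairpins with Mir gene names among the 2202 microRNA genes of GENCODE M21 (GRCm38). Tags found also in Gm42418, in annotated nuclear or mitochondrial rRNA, in mitochondrial tRNA, or in snRNA, snoRNA or scaRNA were dropped. In each arm the most abundant tag set the start, and tags starting within 2 bases of it were counted. Arms that shared their leading tag were treated as 1, tags matching several arms were split evenly, and 1264 arms had tags. Counts were divided by the library's microRNA tags and scaled to 1000000 (CPM). Log2 ratios used a pseudocount of 0.5 counts. Depth and the resulting floor stand with the results. With 1 library per group no test was made, and the intervals cover counting error only, as the reads carry no molecular identifiers.

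Alternatives were scaling to all tags, scaling by DESeq2 1.42.0 (median of ratios) or by edgeR 4.0.16 (TMM), tags of 1 arm only, up to 3 untemplated 3′ bases counted, every tag of an arm, the most abundant tag alone, the other vehicle as control, no minimum level and a minimum of 50 CPM. Counting and intervals were tested on simulated data. Named arms were all of the family, the 5 nearest in pattern and the most abundant of other families. The members and lists were chosen with earlier results of these data known. Python 3.11.15, scipy 1.17.1 and R 4.3.3 were used.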

Additional observations from a re-analysis of the deposited data

Results flagged for a closer look

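Outside the lengths counted, perfect sense tags of 27 to 44 bases from the miR-30 hairpins were present, 10 in all. Only the BIO library held more than the 3 counts that a count of 0 allows in a library. There were 0 after retinoic acid, 5 after BIO and 0 after CHIR99021, against 3 in DMSO, and 1 after vitamin C, against 1 in ddH2O.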

How the results depend on the processing

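No paired analysis was possible because each group had 1 library. With counts divided by all tags, which moved log2 ratios by -1.60 (retinoic acid), -0.93 (CHIR99021), -0.28 (BIO), 0.10 (vitamin C) and -0.41 (ddH2O), 8 arms were called lower in retinoic acid against DMSO, 2 in CHIR99021 against DMSO and 1 in ddH2O against DMSO. Log2 ratios of retinoic acid against DMSO were then -1.21 for the 5p sum, -1.25 for the 3p sum, -1.04 for miR-30a-5p, -0.12 for miR-30b-5p, -1.30 for miR-30b-3p, -1.40 for miR-30c-5p, -1.36 for miR-30c-2-3p, -1.32 for miR-30d-5p, -1.30 for miR-30e-5p, -1.43 for miR-30e-3p, -1.90 for miR-30c-1-3p and -0.93 for miR-30a-3p. The 5p sum of CHIR99021 against DMSO was then -1.03. TMM scaling called 0 arms in retinoic acid against DMSO, with miR-30b-5p at 0.97. With the most abundant tag alone, 1 arm was called in vitamin C against ddH2O, miR-30c-1-3p at 1.44, and 1 in ddH2O against DMSO, the same arm at -2.03. With the other vehicle as control, 1 arm was called after BIO, miR-30a-3p. The causes were not tested beyond the shift that each scaling itself makes. Counting untemplated 3′ ends moved 30 shares beyond their counting interval. That setting, median-of-ratios scaling, tags of 1 arm only, every tag of an arm, no minimum level and a minimum of 50 CPM gave the same number of called arms as reported in each comparison. MiR-30b-5p, with 48.5 to 107 tags in a library, and miR-30c-1-3p, with 34 to 125, are limited by depth.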

Other observations

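Some perfect tags came from the hairpins but from outside the counted windows. Mir30e gave 88 of them, of which 69 were a single 18-base tag that starts at base 41 of the hairpin, between the arms. This tag numbered 2 after retinoic acid, 21 after BIO and 10 after CHIR99021, against 12 in DMSO, and 19 after vitamin C, against 5 in ddH2O. Mir30c-2 gave 50, of which 41 were a 25-base tag starting at base 51. Mir30a gave 20, Mir30c-1 gave 5, and Mir30b and Mir30d gave 1 each.

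Changes at the first base were found mainly on 2 of the 3p strands. The most abundant miR-30e-3p tag, counted 627 times, had 12 copies with C1U, 1.91% of it, and that of miR-30a-3p, counted 882 times, had 8 copies with C1U, 0.907% of it. No first-base change was found on the most abundant tags of miR-30b-3p, miR-30c-1-3p and miR-30c-2-3p, counted 530, 166 and 948 times. MiR-30d-5p, whose most abundant tag numbered 19860, had no internal change other than another member's tag above 0.0504% of it.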
